A study of Rattus norvegicus with 8 samples.

Results

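The genes described here encode the enzymes that start bile acid synthesis from cholesterol and reshape its ring system. They are 7 named genes, Cyp7a1, Cyp8b1, Cyp27a1, Cyp7b1, Cyp39a1, Hsd3b7 and Akr1d1, out of 14217 genes with a probe set annotated to them alone. Every probe set annotated to exactly 1 gene, that gene being on this list, was taken, which gave 8 probe sets of the 31042 tested. Akr1d1 had 2 probe sets and the other 6 genes had 1 each. RNA came from the whole liver of 8 male Sprague-Dawley rats aged 7 weeks, on 1 Affymetrix 3' expression array per rat. For 2 weeks all 8 rats had eaten a commercial chow, CRF-1, to which cholesterol (10 g per kg) and cholic acid (5 g per kg) were added. This follows the design text; the source names of the control samples mention only the chow. Control rats (n = 4) received that diet only, and L. brevis rats (n = 4) received it with 10 g per kg of freeze-dried viable Lactobacillus brevis 119-2, a lactic acid bacterium from a turnip. No rats on a diet without cholesterol and cholic acid were analysed here, so the values carry no comparison with an unsupplemented liver.

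Bile acids are made from cholesterol along a pair of routes. The classic route begins in the endoplasmic reticulum with CYP7A1, which hydroxylates cholesterol and sets the rate of the pathway, and CYP8B1 then directs part of the product to cholic acid. The alternative route begins with oxidation of the sterol side chain, by CYP27A1 in mitochondria, and continues with the oxysterol hydroxylase CYP7B1. CYP39A1, another oxysterol hydroxylase, is counted with that route here without being the step after CYP27A1. HSD3B7 and AKR1D1 alter the sterol rings after the first hydroxylation in either route. Bile acids returning to the liver are known to repress Cyp7a1 and Cyp8b1 through the receptor FXR and its target SHP, whereas cholesterol feeding is known to raise Cyp7a1 in rats through LXR. Cyp7a1 also follows the time of day.

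Signals are given on the log2 scale of the deposited table, and each diet difference is the L. brevis mean less the control mean. A probe set is called varying where its 8 values span more than 0.01 log2, which 6323 of the 31042 probe sets (20.4%) did. The others are called flat. Of these 24719, 24452 span at most 1e-06 log2, and no difference between rats was read from any of them, whatever the fit called. Of the 7 genes, 6 had a varying probe set and 1, Cyp7b1, had a flat one. The level of 1 probe set cannot be set against that of another, so levels are compared between rats, apart from a rough look at background. In whole tissue, fewer cells of a type and less RNA per cell cannot be told apart.

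None of the 6 measurable genes differed between the diets past the adjusted threshold, while Cyp7a1 and Cyp8b1 differed widely from rat to rat within each diet. Measured signals of Cyp7a1 spanned 3.75 log2 units over the 7 livers other than control 3, which was lower still, and those of Cyp8b1 2.60 over all 8, against 0.40 to 0.79 at the brightest probe sets of the other 4. At an adjusted p under 0.05, the limma fit called 0 of the 6 genes, and 0.142% of all probe sets (44 of 31042), of which 37 were flat, none spanning over 1.3e-07 log2, and 7 (0.111% of 6323) varying. The fit to the varying probe sets alone also called 0 of the 6, and 0.0633% of all varying probe sets. At an unadjusted p under 0.05, 1 of the 6 genes was counted, Cyp39a1, where 22.9% of all varying probe sets were. In the fit to varying probe sets alone it was 1 of 6 as well, but Cyp27a1, where 24.5% were. In 0 of the 6 genes did the diets fail to overlap, where 11.3% of all varying probe sets had diets that did not overlap.

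**Figure D1:**
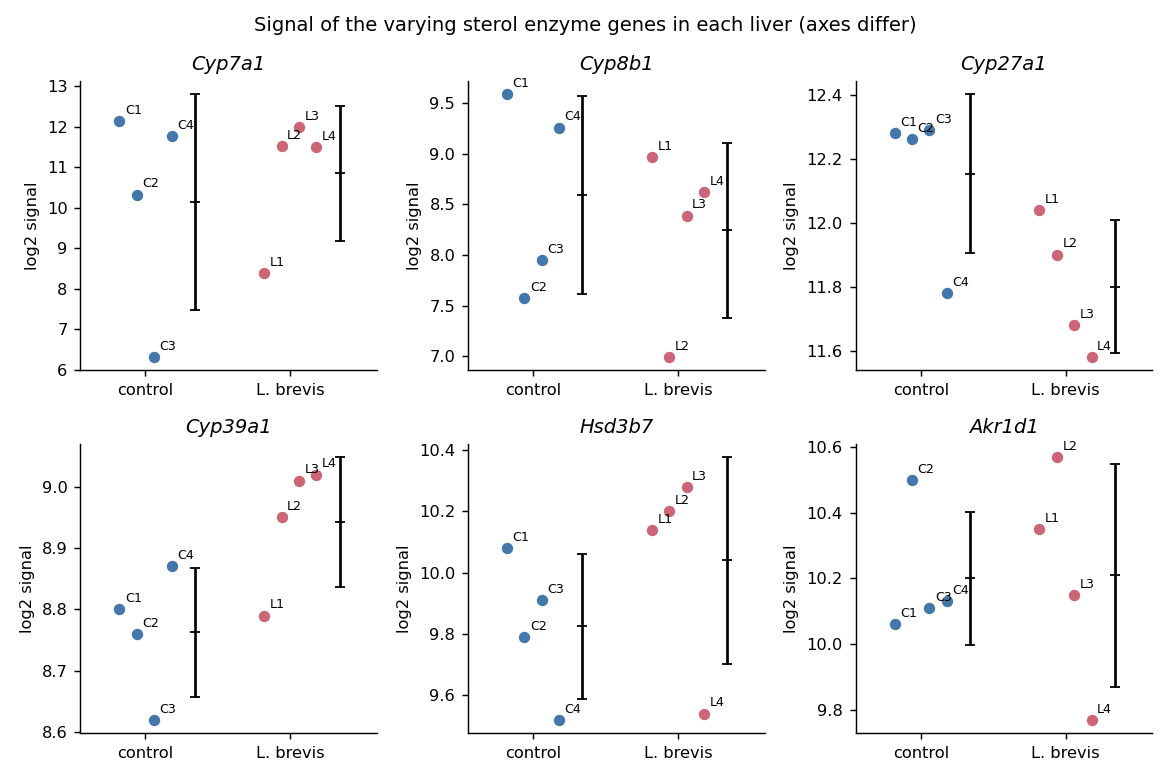
Log2 signal of the 6 varying genes at their brightest probe set in each of the 8 livers (C1 to C4, control; L1 to L4, L. brevis), with the mean and SD of each diet (n = 4) as bars; the vertical axes differ. Cyp7a1 ran from 6.31 to 12.13 and Cyp39a1 only from 8.62 to 9.02.

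Cyp7a1, the gate of the classic route, had signals of 12.13, 10.32, 6.31 and 11.77 in controls 1 to 4. In L. brevis rats 1 to 4 it had 8.38, 11.51, 11.98 and 11.50. Low values occurred in 1 rat of each diet, control 3 and L. brevis 1, and all 4 L. brevis values lay inside the control range. The table holds no detection calls. The 6.31 of control 3 lay below the array medians (6.61 to 6.63). It also lay below flat lymphocyte markers (6.38 to 6.57) and among flat pancreas markers (5.98 to 6.42). Other probe sets are only a rough guide to background, and the value is not shown to be above it. No fold is given against the 6.31, and spreads and differences that include it use the signal as measured. Mean levels were 10.13 ± 2.67 in control and 10.84 ± 1.66 in L. brevis rats (SD, n = 4 each). The diet difference was +0.71 (SE 1.55, adjusted p = 0.977 by limma, exact permutation p = 0.686, two-sided). Its 95% interval ran from -3.06 to 4.48, so that a large change in either direction was not detectable with these rats. Without control 3 the difference was -0.56.

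Cyp8b1, the sterol 12-alpha-hydroxylase that makes cholic acid precursors, had 9.59, 7.57, 7.95 and 9.26 in controls 1 to 4. The L. brevis rats had 8.97, 6.99, 8.39 and 8.62 in the same order. The lowest value belonged to L. brevis 2, in which Cyp7a1 was high, and the other 3 L. brevis values lay inside the control range. Means were 8.59 ± 0.99 and 8.24 ± 0.87, a difference of -0.35 (SE 0.65, 95% interval -1.93 to 1.23, adjusted p = 0.942, exact permutation p = 0.629). The order of the rats by Cyp8b1 was therefore not that by Cyp7a1: control 3 had the lowest Cyp7a1 and a Cyp8b1 above that of control 2.

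The promoters of 4 of the 7 genes were matched in RefSeq's assembly GRCr8, each from 250 bases before to 50 bases after the annotated start. Cyp8b1 is shown because its level ranged widely between livers and Cyp27a1 because it opens the other route with a narrow range. Both strands were searched for AGGTCA (the half-site of many nuclear receptors), CAAGGNC (the core bound by LRH-1, Nr5a2), CACGTG (an E-box), TTATGTAA (a D-box) and TATAAA. Capitals mark every match. The Cyp8b1 promoter lies at chr8:130457543-130457842, minus strand, and the Cyp27a1 promoter at chr9:83713282-83713581, plus strand.
Cyp8b1: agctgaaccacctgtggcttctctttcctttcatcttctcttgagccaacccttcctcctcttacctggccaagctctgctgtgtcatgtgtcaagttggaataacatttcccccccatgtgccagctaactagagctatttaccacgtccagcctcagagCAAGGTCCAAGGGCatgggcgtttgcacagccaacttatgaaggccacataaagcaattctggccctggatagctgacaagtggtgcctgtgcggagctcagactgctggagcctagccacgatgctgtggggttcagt
Cyp27a1: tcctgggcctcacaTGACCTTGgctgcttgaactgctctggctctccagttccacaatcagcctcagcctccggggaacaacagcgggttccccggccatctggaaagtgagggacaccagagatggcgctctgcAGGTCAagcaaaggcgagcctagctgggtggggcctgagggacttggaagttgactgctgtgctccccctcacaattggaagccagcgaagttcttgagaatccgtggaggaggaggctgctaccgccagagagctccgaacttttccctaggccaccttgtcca
In Cyp8b1, 2 adjoining CAAGGNC matches on the gene's strand began 89 and 82 bases before the start. In Cyp27a1, 1 AGGTCA match began 115 bases before the start, and a further AGGTCA and a CAAGGNC match overlapped each other on the opposite strand, beginning 236 and 235 bases before it. Of all 33469 promoters of that length, 16.2% held AGGTCA, 18.6% held CAAGGNC, 6.42% held CACGTG, 0.893% held TTATGTAA and 14.2% held TATAAA. These matches describe the letters in the window and do not show binding.

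The spread of Cyp7a1 and Cyp8b1 between rats stood out against the array as a whole. The pooled SD within diets was 2.22 for Cyp7a1, and 99.7% of the varying probe sets had a smaller one, which placed it 19th from the top of 6323. For Cyp8b1 the pooled SD was 0.93, with 96.9% of varying probe sets below it. At their brightest probe sets the remaining genes lay in the body of the distribution, whose median was 0.22. Hsd3b7 had 0.29, the brighter Akr1d1 probe set 0.28, Cyp27a1 0.23 and Cyp39a1 0.11, the last with 18.2% of varying probe sets below it. The second Akr1d1 probe set had a wider spread, 0.46, with 83.8% of varying probe sets below it. Leaving out 1 rat at a time moved the SD of Cyp7a1 between 1.42 and 2.43, the low value without control 3, which carries much of this spread.

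**Figure D2:**
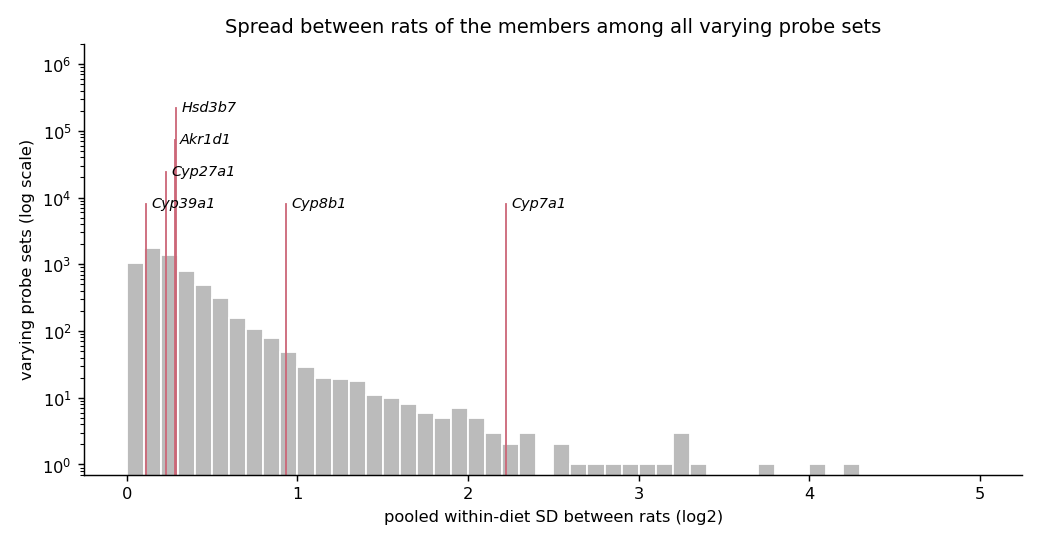
Number of varying probe sets (log axis) by pooled within-diet SD between rats, in bins of 0.1 log2. Red lines mark the 6 varying genes at their brightest probe set, and their heights only separate the names. Cyp7a1 at 2.22 lies in the far tail, Cyp8b1 at 0.93 beyond 96.9% of probe sets, and the other 4 at 0.29 or less.

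Hsd3b7, the dehydrogenase that acts on the ring after the first hydroxylation, had 10.08, 9.79, 9.91 and 9.52 in controls 1 to 4. The L. brevis rats had 10.14, 10.20, 10.28 and 9.54. Among them 3 lay above every control and L. brevis 4 lay with the lowest control. The difference was +0.22 (SE 0.20, adjusted p = 0.750, exact permutation p = 0.314).

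Akr1d1, the reductase that gives the bile acid ring its bend, was read by 2 probe sets. The brighter had 10.06, 10.50, 10.11 and 10.13 in control and 10.35, 10.57, 10.15 and 9.77 in L. brevis rats, a difference of +0.01 (SE 0.19, 95% interval -0.46 to 0.48, exact permutation p = 0.943). At the second probe set the control rats had 8.18, 9.40, 9.31 and 9.13 and the L. brevis rats 8.79, 8.90, 9.53 and 9.10, with a difference of +0.08 (SE 0.32, exact permutation p = 0.886). The probe sets ranked the rats differently: control 1 was far below the other controls at the second and close to controls 3 and 4 at the first. Neither probe set kept its sign when single rats were left out.

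In the alternative route, Cyp27a1 had the lower and Cyp39a1 the higher mean in L. brevis rats, neither past the adjusted threshold. Cyp27a1, the mitochondrial sterol 27-hydroxylase, had 12.28, 12.26, 12.29 and 11.78 in controls 1 to 4 and 12.04, 11.90, 11.68 and 11.58 in L. brevis rats 1 to 4. Control 4 lay among the L. brevis values, and the other 3 controls lay above all of them. Means were 12.15 ± 0.25 and 11.80 ± 0.21, a difference of -0.35 (SE 0.16, 95% interval -0.74 to 0.03, unadjusted p = 0.0676, adjusted p = 0.483 by limma, exact permutation p = 0.0857). In the fit to varying probe sets alone its unadjusted p was 0.0491 and its adjusted p 0.203.

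Cyp39a1, an oxysterol 7-alpha-hydroxylase of the liver, had 8.80, 8.76, 8.62 and 8.87 in control and 8.79, 8.95, 9.01 and 9.02 in L. brevis rats. All L. brevis values except that of L. brevis 1 lay above every control. The difference was small, +0.18 (SE 0.07, 1.13-fold, unadjusted p = 0.0497, adjusted p = 0.425 by limma, exact permutation p = 0.0857). In the fit to varying probe sets alone its unadjusted p was 0.0722 and its adjusted p 0.235. With single rats left out, its unadjusted p was under 0.05 without control 4 or L. brevis 1 and above 0.05 without any of the other 6. Cyp7b1, the other oxysterol hydroxylase, held 6.03 on all 8 arrays, so its probe set gives no measure of a diet difference.

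The values of Cyp27a1 and Cyp39a1 moved with a control of the labelling reaction. Affymetrix arrays carry separate probe sets for the 5' and 3' ends of GAPDH, and a lower 5' signal relative to the 3' signal is a usual sign of shorter RNA or shorter labelled product. The 5' minus 3' difference ran from -2.93 to -1.83 in control and from -2.20 to -0.68 in L. brevis rats (exact permutation p = 0.0857), so it differed in the same rats as the diets. Over the 8 rats Cyp27a1 was lower where the difference was nearer to 0 (r = -0.854, exact permutation p = 0.0102, adjusted 0.0305; rho = -0.881, exact p = 0.0072, adjusted 0.0434). Cyp39a1 was higher there (r = 0.897, exact permutation p = 0.0033, adjusted 0.0198; rho = 0.833, exact p = 0.0154, adjusted 0.0461). These adjusted values cover the 6 genes, a family of relations added after the data were seen. Without control 3 and L. brevis 4, the rats farthest from the median, r was -0.726 for Cyp27a1 and 0.807 for Cyp39a1, and over deviations from the diet means it was -0.723 and 0.792. With 1 rat left out, the adjusted p of Cyp27a1 was above 0.05 without control 1, control 3, L. brevis 1, L. brevis 3 or L. brevis 4 (r from -0.855 to -0.787). That of Cyp39a1 was above 0.05 without control 3, L. brevis 3 or L. brevis 4 (r from 0.863 to 0.871). Such relations were common on these arrays, since 20.8% of varying probe sets had an r at least as far from 0 as that of Cyp27a1 and 13.5% as that of Cyp39a1. With the GAPDH difference as a covariate the diet differences were -0.055 for Cyp27a1 and 0.029 for Cyp39a1. Without L. brevis 3 and 4, the arrays nearest to 0 in that difference, they were -0.19 and 0.11. For Cyp7a1 the same relation had r = 0.529 (exact permutation p = 0.174), for Cyp8b1 -0.313 (exact p = 0.442), for Hsd3b7 -0.0827 (exact p = 0.840) and for Akr1d1 -0.0961 (exact p = 0.813). Over deviations from the diet means r was 0.584 for Cyp7a1. Control 3 and L. brevis 1, its lowest rats, had the lowest GAPDH difference of their diets, but control 1, at -2.89, had the highest Cyp7a1. With the covariate the diet difference of Cyp7a1 was -1.63 (SE 1.98). The part of the GAPDH difference in its spread was not tested.

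**Figure D3:**
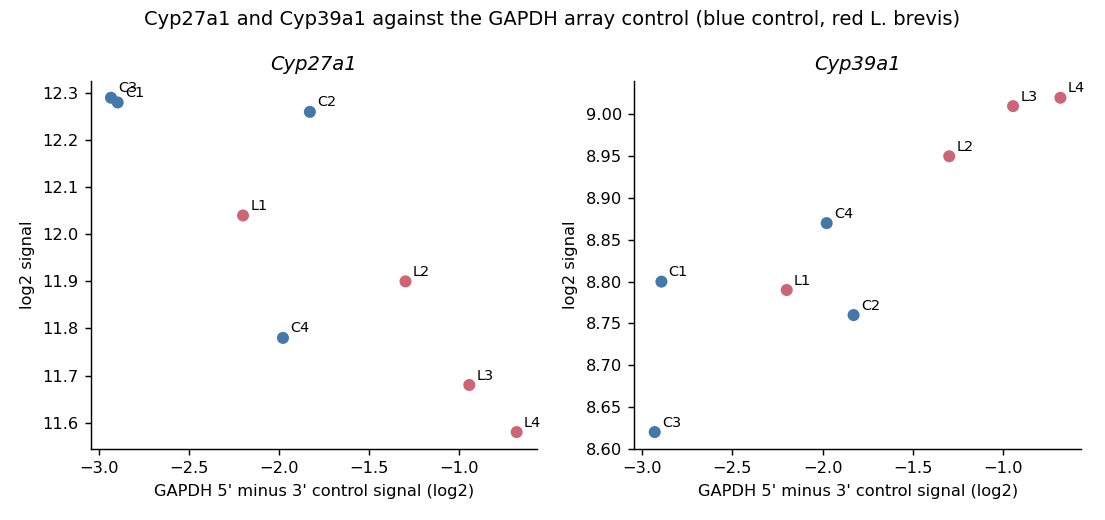
Log2 signal of Cyp27a1 (left) and Cyp39a1 (right) against the GAPDH 5' minus 3' control signal of the same array, 1 point per rat, blue for control (C1 to C4) and red for L. brevis (L1 to L4). Cyp27a1 declines along the axis (r = -0.854) and Cyp39a1 climbs (r = 0.897), and the L. brevis arrays L2 to L4 hold the right end.

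Whether the classic and alternative routes shifted against each other was read from Cyp7a1 minus Cyp27a1 in each rat, centred on the mean of the 8 rats. This contrast was 1.34, -0.46, -4.49 and 1.48 in controls 1 to 4 and -2.17, 1.10, 1.79 and 1.41 in L. brevis rats 1 to 4. It followed Cyp7a1, with control 3 and L. brevis 1 at the low end, and its diet means differed by 1.07 against SDs of 2.78 and 1.82. It is given without a test, since it combines genes chosen with results of these data known.

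No relation of Cyp7a1 with another of these genes over the rats passed the adjusted threshold. Its Pearson r with Cyp8b1 over the 8 rats was 0.207 (exact permutation p = 0.628; rho = 0.429, exact p = 0.299). With Cyp27a1 r was -0.519 (exact permutation p = 0.202; rho = -0.333, exact p = 0.428), with Hsd3b7 -0.0492 (exact p = 0.907; rho = 0.190, exact p = 0.665) and with Akr1d1 -0.122 (exact p = 0.767; rho = -0.167, exact p = 0.703). The strongest of these 5 relations was with Cyp39a1, at r = 0.777 (exact permutation p = 0.0192, adjusted over the 5 relations 0.0961; rho = 0.571, exact p = 0.151, adjusted 0.703). Only 2.10% of varying probe sets had an r with Cyp7a1 at least that far from 0. It rests on control 3 and L. brevis 1, the rats lowest in Cyp7a1, as without them r was 0.401. Over deviations from the diet means r was 0.926 in the 8 rats and 0.489 without those 2. The other adjusted p-values over the 5 relations were 0.505 for Cyp27a1 and 0.907 for Cyp8b1, Hsd3b7 and Akr1d1 by Pearson, and 0.703 for all 4 by Spearman. Without those rats r was 0.609 with Cyp8b1, -0.344 with Cyp27a1, 0.296 with Hsd3b7 and -0.498 with Akr1d1.

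The genes whose pattern was most like that of Cyp7a1 were sought among 1100 genes with a range of at least 1 log2, by the correlation of deviations from the diet means over the 8 rats. The 5 highest were Mcee, an epimerase of propionate metabolism (r = 0.91), Smpdl3a (0.90), Tcn2, the transcobalamin that carries vitamin B12 (0.89), Bhmt, which remethylates homocysteine with betaine (0.87), and Tpmt, thiopurine methyltransferase (0.87). The 3 lowest were Itgb3, an integrin subunit (-0.95), Midn (-0.94) and Cyp17a1, the steroid hydroxylase (-0.93). By Spearman's rho the same genes had 0.71, 0.88, 0.55, 0.83, 0.60, -0.79, -0.90 and -0.83. Ranked from the top by rho, Smpdl3a was 1, Bhmt 2, Mcee 16, Tpmt 57 and Tcn2 76. These genes are the extremes of 1100 correlations over 8 points that share their arrays, and so a description. No r without control 3 and L. brevis 1, the rats lowest in Cyp7a1, was computed for them. Cyp39a1, at r = 0.926, was not among the 1100, as its range was 0.40. Cyp17a1, also a P450 that acts on steroids, was 10.50 in control 3, where Cyp7a1 was lowest, and 7.81 to 9.72 in the other 7 rats.

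The rest of the pathway was read from a list of 15 genes. It holds the enzymes that shorten the side chain and join bile acids to taurine or glycine, the cholesterol carriers Star and Stard3, the sterol hydroxylases Ch25h and Cyp46a1, the ring reductase Akr1c14 and the epoxide hydrolase Ephx1. Of the 15, 14 were measured and 9 varied, 6 higher and 3 lower, with a median of 0.16. Star, Stard3, Ch25h and Cyp46a1 were flat, so the 9 are side chain and conjugation genes with Akr1c14 and Ephx1. Over all 3806 genes whose brightest probe set varied, 42.0% were higher and the median was -0.042. At an unadjusted p under 0.05 there were 2 higher and 1 lower, that is 33.3%, where 20.6% of all those genes passed, and 0 passed the adjusted threshold by limma. Slc27a5, the bile acid coenzyme A ligase, had 12.45, 12.86, 12.61 and 12.36 in control and 12.14, 12.11, 11.76 and 11.67 in L. brevis rats (-0.65, SE 0.16, adjusted p = 0.323). Baat, the conjugating transferase, had 12.39, 12.71, 12.58 and 12.35 in control and 12.81, 12.79, 13.02 and 13.04 in L. brevis rats (+0.41, SE 0.11, adjusted p = 0.347). The diets did not overlap in either gene, as was so in 11.3% of all varying probe sets. Hsd17b4, the peroxisomal bifunctional enzyme of side chain shortening, differed by +0.24 (SE 0.09, adjusted p = 0.357). With the GAPDH difference as a covariate 0 genes of the list had an unadjusted p under 0.05 by limma, and without L. brevis 3 and 4 the list had 1 such gene.

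**Figure D4:**
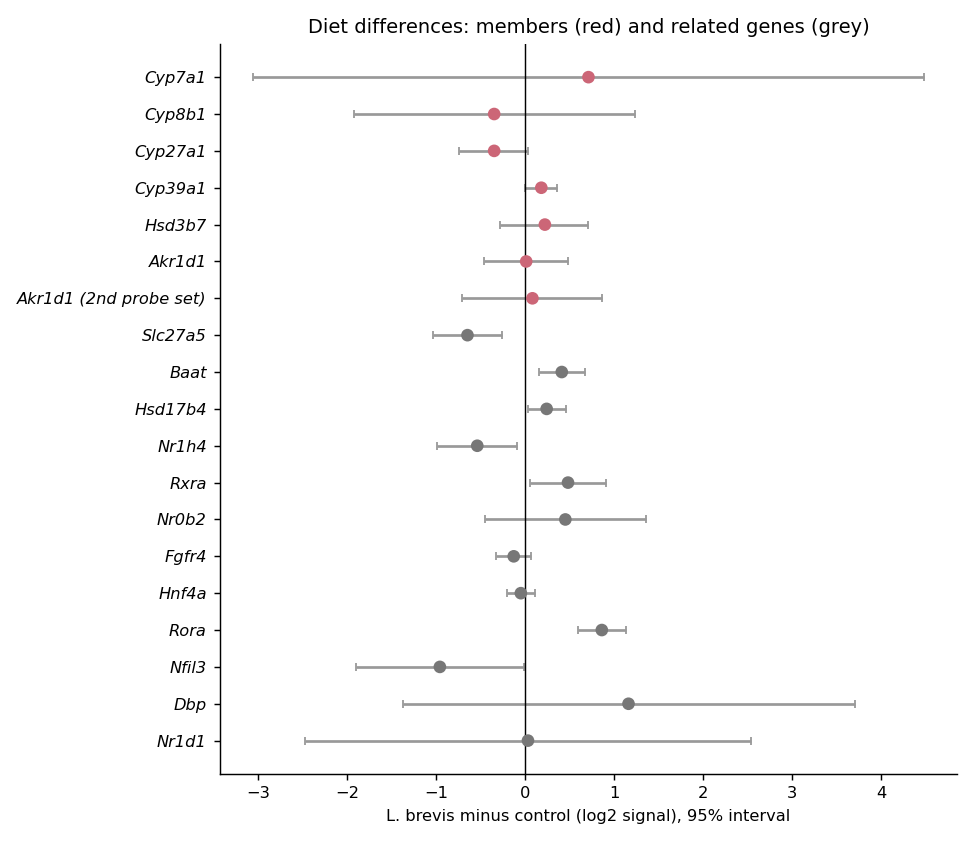
Diet difference (L. brevis minus control, log2) with its 95% interval from limma for the 7 varying probe sets of the hydroxylase and ring enzyme genes (red) and 12 related genes (grey). The interval of Cyp7a1, -3.06 to 4.48, is the widest drawn, and the red points lie between -0.35 and 0.71.

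Of 22 regulators of the hydroxylases 18 were measured and 12 varied, 4 higher and 8 lower, with a median of -0.10. At an unadjusted p under 0.05 there were 1 higher and 1 lower (16.7%), where 20.6% of all genes with a varying probe set were. At the adjusted threshold there were 0 by limma. Nr1h4, the bile acid receptor FXR, had 9.84, 9.63, 9.42 and 9.28 in control and 9.09, 9.32, 8.94 and 8.64 in L. brevis rats (-0.54, SE 0.19, adjusted p = 0.355). Rxra, its dimer partner, differed by +0.48 (SE 0.18, adjusted p = 0.379). The count of 2 was 0 without control 1, control 2, L. brevis 3 or L. brevis 4, and 1 without control 3 or L. brevis 2. Nr0b2, which encodes SHP, the repressor of Cyp7a1 and Cyp8b1, had 8.56, 9.25, 8.17 and 8.73 in control and 9.11, 9.86, 8.38 and 9.17 in L. brevis rats. The rat with the highest Nr0b2, L. brevis 2, had the lowest Cyp8b1 of all 8 and a high Cyp7a1. Control 3, with the lowest Nr0b2, had the lowest Cyp7a1, a value not shown to be above background. These are the extreme rats for Nr0b2 only, and its relation to either gene over the 8 rats was not tested. The receptor gene Fgfr4, through which FGF15 from the gut represses Cyp7a1, differed by -0.13 (SE 0.08) and Hnf4a by -0.05 (SE 0.07). Fgfr4 ran from 7.48 to 7.94 over the 8 rats and Hnf4a from 11.57 to 11.85.

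Some clock genes, Dbp, Nr1d1, Nr1d2, Per3 and Tef among them, were highest in the same 3 rats, control 4 and L. brevis 3 and 4, which crossed the diets. Control 3 came next in Nr1d1, Nr1d2 (9.08), Per3 (6.87) and Tef (8.15), but not in Dbp. The remaining rats had at most 7.88 in Nr1d2, 6.19 in Per3 and 7.68 in Tef. Npas2 and Bmal1 were lowest in control 4 and L. brevis 3 and 4. Npas2 had 5.64 to 7.25 there and 8.53 to 9.55 in the other 5, and Bmal1 6.12 to 6.87 against 7.39 to 7.73. Clock and Bhlhe40 did not set these rats apart. Per1 was lower in these rats and in control 3 (6.72 to 7.48) than in the remaining rats (7.77 to 8.36). Dbp, a clock output known to drive Cyp7a1, had 8.19 in control 4, 8.56 in L. brevis 3 and 9.87 in L. brevis 4, and 5.77 to 6.37 in the other 5 rats. Nr1d1, a clock repressor, had 8.63, 8.74 and 8.34 in those same rats and 7.86 in control 3, against 5.66 to 6.12 in the other 4. Cyp7a1 was high in all 3 rats with high Dbp (11.50 to 11.98) but also in control 1 and L. brevis 2, whose Dbp was low. Cyp27a1 had its 3 lowest values in the rats with high Dbp (11.58 to 11.78). Without those 3 rats its diet difference was -0.31 (SE 0.05, adjusted p = 0.429 by limma), from 3 control and 2 L. brevis rats, and that of Cyp7a1 was 0.36 (SE 2.45). The labels read here state no hour of tissue collection, and its part in these values was not tested. Of 18 listed clock genes 15 were measured and 14 varied, 10 higher and 4 lower, with a median of 0.18. At an unadjusted p under 0.05 there were 1 higher and 1 lower, which is 14.3%, where 20.6% of all genes with a varying probe set were. By limma 0 passed the adjusted threshold. The higher was Rora (+0.86, SE 0.11, adjusted p = 0.106) and the lower Nfil3 (-0.96, SE 0.39, adjusted p = 0.414). The diets did not overlap in Rora (6.31 to 6.65 in control and 7.27 to 7.61 in L. brevis rats), as was so in 11.3% of all varying probe sets. That count of 2 was 1 without any single one of controls 1, 2 and 3 and L. brevis 1, 3 and 4.

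**Figure D5:**
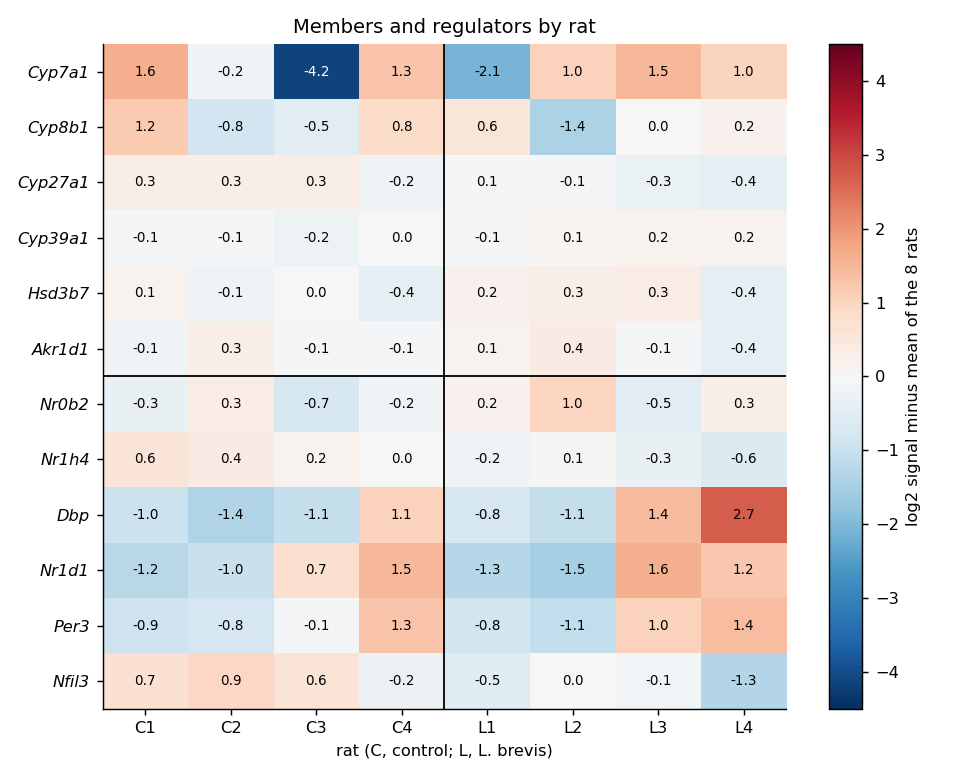
Log2 signal of the 6 varying genes (upper block) and 6 regulators and clock genes (lower block) in each liver, minus the mean of the 8 livers, as colour and number. Cyp7a1 is lowest in C3 and L1, while Dbp, Nr1d1 and Per3 are highest in C4, L3 and L4.

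Hepatocyte markers were present, with Alb at 14.55 and Serpina1 at 13.81 as single values on all arrays. Lymphocyte markers (5 of 5 measured, 6.38 to 6.57) and 5 of 6 pancreas markers (5.98 to 6.42) were flat, as were 5 of 7 cholangiocyte markers. The mean over 7 varying hepatocyte markers ran from 12.44 to 12.69 in control and from 12.50 to 12.74 in L. brevis rats. All 5 varying endothelial markers had lower means in L. brevis rats (median -0.41), 3 of them (60.0%) at an unadjusted p under 0.05. Of 6 varying macrophage markers 5 had higher means (median 0.26), 2 (33.3%) at that p, where 20.6% of all genes with a varying probe set were, and 0 of either list passed the adjusted threshold by limma. Their part in the hydroxylase values was not tested. Skeletal muscle markers (5 varying of 7 measured) averaged 9.24 in L. brevis 2, the rat with the lowest Cyp8b1, and 6.97 to 7.16 in the other 7. Most of this came from Acta1, 12.45 in L. brevis 2 and at most 5.54 elsewhere. Ckm and Tnni2 were also highest in that rat, Myh1 was not, and Actn3 ranged only from 6.21 to 6.38. The part of these markers was not tested either. Since the hydroxylases are not spread evenly over the liver lobule, zonation markers were read as well. Pericentral markers (9 varying, 4 higher and 5 lower, median -0.04) averaged 9.71 to 10.02 in control and 9.63 to 10.08 in L. brevis rats. Periportal markers (9 varying, 6 higher and 3 lower, median 0.04) averaged 10.91 to 11.86 and 11.45 to 12.03, and 0 genes of either list had an unadjusted p under 0.05 by limma.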

How the data were processed

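The deposited table gives each probe set a log2 value on each array, summarised and normalized by the authors with methods not given in the sources used here. Labelled RNA was made with a 3' in vitro transcription kit, per the labels' protocols. Of 31099 probe sets 57 Affymetrix controls were left out. Symbols came from the platform annotation, checked through gene identifiers: 20826 probe sets had 1 symbol, 436 several and 9780 none. A gene is represented by its brightest single-gene probe set. All 31042 probe sets were fitted with limma 3.58.1 in R 4.3.3 (lmFit, eBayes with an intensity trend, two-sided, Benjamini-Hochberg, threshold 0.05), a script tested on simulated data. Beside it stands an exact permutation test over 70 assignments of the rats (smallest p 0.0286). Correlations used all orders of the 8 rats. The genes, lists and most alternatives were chosen with earlier results of these data known. The other genes named are those of the 3 pathway lists at an unadjusted p under 0.05, a fixed set of regulators, and the genes most and least like Cyp7a1. Genes named to describe a list, and Serpina1, Per1, Per3, Nr1d2, Tef, Npas2, Bmal1, Clock and Bhlhe40, were named after their values were seen. The labels call the 4 samples of a diet biological replicates. The number of arrays limits the precision.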

Additional observations from a re-analysis of the deposited data

Results flagged for a closer look

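In 7 of 54 groups of 4 rats, 1 rat stood apart from the other 3 by a gap above Dixon's 95% critical value for 4 samples, where chance gives about 1 in 20. The groups cover the hydroxylase and ring enzyme genes and part of the other genes named in the text. Some genes named after their values were seen, Clock and Bhlhe40 among them, were not examined. Among the hydroxylase and ring enzyme genes, Cyp7a1 was 8.38 in L. brevis 1 against 11.50 or more in the other L. brevis rats. Cyp27a1 was 11.78 in control 4 against 12.26 or more in the other controls. Akr1d1 was 10.50 in control 2 against at most 10.13 in the other controls. Control 4 also had the highest control values of Hnf4a (11.85, next 11.61) and of Dbp (8.19, next 6.18). Fgfr4 was 7.48 in L. brevis 2 against 7.65 or more in the other L. brevis rats. Tcn2 was 7.66 in control 3, the rat with the lowest Cyp7a1, against 8.61 or more in the other controls. Tcn2 was named because its pattern was like that of Cyp7a1, so this value is not independent of that choice. The chance rate does not allow for genes chosen by their values.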

How the results depend on the processing

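No alternative brought any of the 6 measurable genes past the adjusted threshold. The lowest adjusted p by limma was 0.0721, for Cyp39a1 after median centring. That setting also shifted the flat probe sets, and 20590 of 31042 probe sets then had an unadjusted p under 0.05. The 0.0721 is therefore not read as close to a call. Cyp27a1 stayed lower (-0.48 to -0.055), and Cyp39a1 (0.029 to 0.23) and Hsd3b7 (0.11 to 0.52) stayed higher, under all 18. The causes of the changes below were not tested. With single rats left out, Cyp7a1 ran from -0.56 to 1.53, Cyp8b1 from -0.69 to 0.068, Akr1d1 from -0.11 to 0.16 and its second probe set from -0.20 to 0.21. With the GAPDH covariate these were -1.63 for Cyp7a1, 0.047 for Cyp8b1 and -0.38 for the second Akr1d1 probe set, with Dbp at -0.53 and Nr1d1 at -1.29. Under quantile normalization Akr1d1 was -0.054. Without L. brevis 3 and 4, added after seeing the data, Cyp7a1 was -0.19, the second Akr1d1 probe set -0.16, Dbp -0.33 and Nr1d1 -1.36. Without control 4 and L. brevis 3 and 4, also added then, that probe set was -0.12 and Nr1d1 -0.86. Single rats moved Hnf4a from -0.078 to 0.015 and Nr1d1 from -0.50 to 0.53. They moved the r of Cyp7a1 with Cyp39a1 from 0.522 to 0.885 (adjusted p = 0.0377 by exact permutation without control 1), with Hsd3b7 from -0.223 to 0.118 and with Akr1d1 from -0.409 to 0.0152; the last was 0.107 without L. brevis 3 and 4. Genes at an unadjusted p under 0.05 numbered, for the rest of the pathway, 0 with the GAPDH covariate and 1 in either added setting. For regulators they were 0 to 2 with single rats left out, 1 without L. brevis 3 and 4 and 0 without control 4 as well. For clock genes they were 1 to 2 with single rats left out, 1 with the covariate and 4 without control 4 and L. brevis 3 and 4. Over all probe sets, limma called 44, but 4 of varying ones alone, 0 after quantile normalization (3374 at an unadjusted p under 0.05), 4 after median centring, 21 without dim ones, 67 to 180 with single rats left out, 180 without L. brevis 3 and 4 and 370 without control 4 as well. The replicate block gave 128. Deviations of same-numbered rats correlated at 0.36, 0.20, 0.08 and 0.38, and only numbers 1 and 2 had their best partner under the same number. All 4 were positive, so this check does not settle whether the numbers pair the rats. With the block the SE fell for Cyp8b1 (0.65 to 0.26), Cyp27a1 (0.16 to 0.09), Hsd3b7 and Akr1d1. It rose for Cyp7a1 (1.55 to 1.90) and Cyp39a1 (0.07 to 0.08). The block ended or made no call among the 6 genes.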
